A study of Mus musculus with 17 samples.

Results

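Antigen presentation by MHC class II was examined through 8 genes: H2-Aa, H2-Ab1, H2-Eb1, Cd74, H2-DMa, Ctss, Ciita and Cd86. A probe set was taken where the array's annotation gave it exactly 1 of these symbols, and each gene was represented by its probe set of highest mean over all arrays. The 8 genes had 16 such probe sets, and they stand among 17097 genes that had a named probe set. The arrays came from C57/Bl6 mice of wildtype genotype, and the transferred cells came from donors of the same strain carrying CD45.2. Leukemias were raised by injecting Myc/Bcl2-transformed cells into recipients of 4 to 8 weeks that had received 4.5 to 6 Gy of irradiation, and myeloid splenocytes (CD11b+Gr1+, and negative for CD3, CD4 and CD8) were sorted when disease was overt.

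The 13 leukemia arrays differ in the cell that was transformed. It was the LSK cell of the marrow (lineage-negative, Sca1+ c-kit+, a stem-cell-enriched population) in 3 arrays, the CD4/CD8 double-negative stage 2 thymocyte (DN2, an early T-lineage progenitor) in 5, and the granulocyte-macrophage progenitor (GMP) in 5. Another 2 arrays hold healthy thymic DN2 cells and 2 hold healthy marrow GMP, whose labels name no transgene. No array of healthy LSK cells was analysed here, so the LSK-derived leukemias have no healthy counterpart below. Each array is named by its group and its labelled replicate number, as in LSK 1. The labels do not say that replicates are separate mice, so every p-value measures only the spread between these arrays, which may be technical.

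MHC class II molecules are pairs of an alpha and a beta chain that display peptides from the endosomal pathway to CD4+ T cells. The invariant chain Cd74 escorts new pairs, cathepsin S trims it to a short fragment that occupies the groove, and the DM molecule exchanges that fragment for peptide. Dendritic cells, B cells and macrophages are the usual carriers, and the coactivator CIITA switches the whole set on through proteins bound at the X and Y boxes of the promoters. C57BL/6 mice do not make the E alpha chain, so in this strain the product of H2-Eb1 has no partner with which to reach the surface.

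Promoter sequences (RefSeq, build GRCm38.p6) are shown for the members whose window held a searched motif, since these boxes are what the chain genes are known to share. A window ran from 250 bases before to 50 bases after the start of a gene, and windows were found for 4 of the 8 members (H2-Aa, H2-Eb1, H2-DMa and Ctss). The stretches printed run 5′ to 3′ in the direction of the gene and end at the base before its start. They are H2-Aa, chr17:34287824-34287953 on the minus strand, H2-Eb1, chr17:34305737-34305866 on the plus strand, and Ctss, chr3:95526726-95526785 on the plus strand. Capitals mark the matched motif letters.
H2-Aa: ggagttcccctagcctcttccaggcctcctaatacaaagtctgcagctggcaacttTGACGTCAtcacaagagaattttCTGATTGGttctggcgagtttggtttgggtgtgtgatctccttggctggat
H2-Eb1: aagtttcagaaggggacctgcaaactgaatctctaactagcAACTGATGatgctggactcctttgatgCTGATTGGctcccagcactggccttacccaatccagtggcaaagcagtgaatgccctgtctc
Ctss: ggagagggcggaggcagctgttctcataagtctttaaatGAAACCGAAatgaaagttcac

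Motifs were searched on both strands as exact letters, with N for any base. The X box core (AACNGATG, in 2.32% of the 32851 promoter windows) began 89 bases before the start of H2-Eb1, and its letters also occurred 207 bases before Ctss, outside the stretch printed. The Y box (CTGATTGG, in 4.1% of windows) began 62 bases before H2-Eb1 and 51 before H2-Aa. H2-Aa also held the cyclic AMP response element (TGACGTCA, in 1.79%) 74 bases before its start. Ctss held the interferon response core (GAAANNGAA, in 8.56%) 21 bases before its start. The windows of H2-DMa held no match to any of the 4 motifs. Of 22 other class II pathway genes, 16 had a window. Among these the X box core began 130 bases before H2-Eb2, 92 before H2-DMb1 and 121 before H2-DMb2, the Y box 103 before H2-Eb2 and 46 before H2-Oa, and the interferon response core 8 before Sppl2a. A match describes letters in a window and is not a measured binding site.

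Values are the authors' RMA summaries on a log2 scale, and the median of all values was 3.83, close to background. Tests were limited to the 11629 genes with at least 1 group mean above that median. Differences were tested with limma over all 17 arrays and called at a Benjamini-Hochberg adjusted p under 0.05. All 8 members passed, but Ciita did so only through the LSK group, so it could not have been tested without being high there, and counts are also given without it. In the other gene lists below, a gene that passed only through the LSK group could likewise only be called higher there. Levels of different genes come from different probes and are not compared.

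Some arrays depart from their labels. Results are given below without LSK 2 and 3, without DN2 leukemias 1 and 3, and without DN2 leukemias 2, 4 and 5. LSK 2 and LSK 3 had log2 values of Mycn, the Myc family gene that is high in the other 11 leukemia arrays, of 4.91 and 4.22. LSK 1 had 12.82, and the healthy arrays had 3.96 to 4.58. Bcl2, which the labels name with Myc as transforming these cells, was 11.30 in LSK 1, 6.75 in LSK 2 and 5.27 in LSK 3, against 9.25 to 9.94 in DN2 leukemias, 10.08 to 11.53 in GMP leukemias, 6.78 and 6.99 in healthy DN2 cells and 6.51 and 5.89 in healthy GMP. LSK 2 and LSK 3 were thus near the healthy cells for both genes, and Bcl2 was lower in LSK than in GMP leukemia (log2 difference -2.98, SE 0.90, adjusted p = 0.0231). The mean log2 value of 10 neutrophil markers was 3.57 to 4.98 in the DN2 leukemias, against 10.98 to 13.11 in LSK and 11.80 to 12.90 in GMP leukemias. The mean of 10 T-cell markers was 10.10 to 10.47 in the DN2 leukemias and at most 4.86 in the LSK and GMP leukemias, which goes against the myeloid sort in all 5 DN2 leukemias. A fit of the LSK and GMP leukemias alone, with no DN2 array, called 6 of 8 members higher in LSK than in GMP leukemia, where 15.8% of all genes were called. Itgam, which encodes CD11b, was 7.17 and 7.38 in DN2 leukemias 1 and 3 and 3.24 to 3.47 in the rest of that group. The Y-linked gene Eif2s3y was high in all 3 LSK arrays, in DN2 leukemia 2 and in GMP leukemia 2, and with Y-linked expression as a covariate the member calls given below between leukemia groups were 8, 7 and 1, as without it.

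Among the leukemia groups, the class II genes had their highest means in the LSK-derived leukemias. Of the 7 members other than Ciita, 7 were higher there than in the GMP-derived leukemias, by 1.73 to 5.23 on the log2 scale, and 6 were higher than in the DN2-derived leukemias (limma, adjusted p under 0.05). With Ciita the counts are 8 of 8 and 7 of 8. Of all genes tested, 26.7% were called in LSK against GMP leukemia (10.3% higher, 16.5% lower) and 47.4% in DN2 against LSK leukemia (28.3% higher, 19.1% lower). The median difference of the 7 members was 4.17 in LSK against GMP leukemia, beside -0.056 over all genes tested, and -3.51 in DN2 against LSK leukemia, beside 0.11. The DN2 and GMP leukemias differed in 1 member, H2-DMa, by the probe set used here, where 39.8% of all genes were called (21.0% higher, 18.8% lower). Arrays of the groups did not overlap for 6 of 8 members in LSK against GMP leukemia (23.9% of all genes tested), for 1 of 8 in DN2 against GMP leukemia (28.1%) and for 0 of 8 in DN2 against LSK leukemia (41.9%). With LSK 2 and LSK 3 left out, LSK 1 alone stood for the group, Ciita was not tested, and the counts became 0 of 7 against both groups (limma, with 2 of 7 at an unadjusted p under 0.05 against GMP leukemia and 0 of 7 against DN2 leukemia). The fit then assumes that LSK 1 varies like the other groups. With DN2 leukemias 2, 4 and 5 left out (a setting added after the values were seen, which keeps the 2 arrays with Itgam), 4 of 8 members were called higher in DN2 than in GMP leukemia (25.5% of all genes called) and 1 of 8, Ctss, lower in DN2 than in LSK leukemia (31.8%). H2-Aa then differed from GMP leukemia by 3.77 (adjusted p = 0.017), H2-Ab1 by 2.89 (0.033), H2-Eb1 by 3.58 (0.0215) and H2-DMa by 3.30 (0.0109). With DN2 leukemias 1 and 3 left out, those counts were 1 of 8 (35.8% of all genes called) and 7 of 8 (43.8%).

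**Figure D1:**
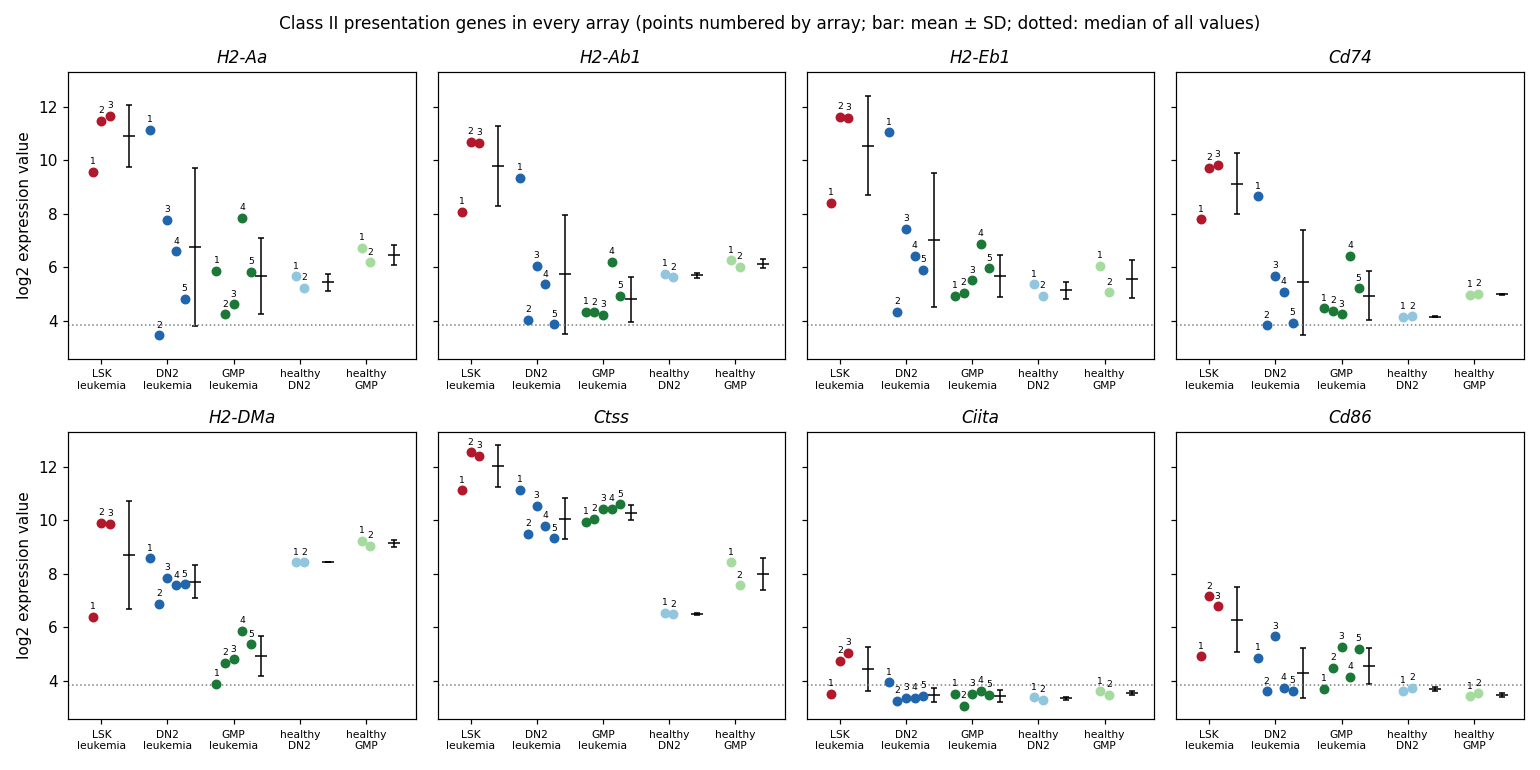
Log2 expression value (vertical axis) of each of the 8 class II presentation genes in all 17 arrays, with points numbered by replicate, a bar for the mean ± SD of each group and a dotted line at the median of all values, 3.83. LSK 2 and LSK 3 lie above LSK 1 in every panel, and DN2 leukemia 1 lies above the other DN2 leukemias in every panel but Cd86.

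H2-Aa encodes the alpha chain of the I-A molecule, the class II molecule that C57BL/6 cells do display. Its log2 value was 9.56, 11.48 and 11.67 in LSK 1 to 3 and 11.13, 3.45, 7.77, 6.59 and 4.83 in DN2 leukemias 1 to 5. In GMP leukemias 1 to 5 it was 5.86, 4.24, 4.62, 7.84 and 5.83, in healthy DN2 cells 5.66 and 5.22, and in healthy GMP 6.72 and 6.19. The LSK arrays all lay above every GMP and healthy array, while DN2 leukemia 1 lay inside the LSK range and DN2 leukemia 2 below the median of all values. The mean was 37.4-fold higher in LSK than in GMP leukemia (log2 difference 5.23, SE 1.30, n = 3 and 5, limma adjusted p = 0.00845). It was 17.7-fold lower in DN2 than in LSK leukemia (log2 difference -4.15, SE 1.30, limma adjusted p = 0.0166), and that call was lost without LSK 2 (adjusted p = 0.0608) or without LSK 3 (0.0657).

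H2-Ab1 encodes the beta chain that pairs with H2-Aa. It had log2 values of 8.07, 10.68 and 10.64 in LSK 1 to 3 and of 9.33, 4.04, 6.05, 5.36 and 3.87 in DN2 leukemias 1 to 5. The GMP leukemias 1 to 5 had 4.32, 4.31, 4.22, 6.21 and 4.93, healthy DN2 cells 5.76 and 5.62, and healthy GMP 6.26 and 6.02. Again no LSK array overlapped the GMP leukemias or the healthy cells, and DN2 leukemia 1 was the only DN2 array to reach the LSK range. The mean was 32.0-fold higher in LSK than in GMP leukemia (log2 difference 5.00, SE 1.00, adjusted p = 0.00225) and 16.8-fold lower in DN2 than in LSK leukemia (-4.07, SE 1.00, adjusted p = 0.00395).

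H2-Eb1, the beta chain of I-E, moved with the I-A chains in spite of having no partner in this strain. Its values were 8.41, 11.62 and 11.59 in LSK 1 to 3 and 11.04, 4.33, 7.45, 6.42 and 5.89 in DN2 leukemias 1 to 5. In GMP leukemias 1 to 5 they were 4.94, 5.04, 5.51, 6.87 and 5.96, in healthy DN2 cells 5.37 and 4.92, and in healthy GMP 6.06 and 5.06. LSK 1, the lowest LSK array, was above all GMP and healthy arrays. The LSK mean was 29.4-fold above that of GMP leukemia (log2 difference 4.88, SE 1.14, adjusted p = 0.0059). The DN2 mean was 11.4-fold below that of LSK leukemia (-3.51, SE 1.14, adjusted p = 0.02), a call that ended without LSK 2 (adjusted p = 0.0891) or LSK 3 (0.089). H2-Ea, the missing partner's gene, was 4.50 to 5.55 in all 17 arrays and was not called between leukemia groups.

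Cd74 encodes the invariant chain. Its values were 7.80, 9.72 and 9.82 in LSK 1 to 3 and 8.65, 3.83, 5.67, 5.08 and 3.93 in DN2 leukemias 1 to 5. They were 4.46, 4.37, 4.23, 6.44 and 5.21 in GMP leukemias 1 to 5, 4.14 and 4.17 in healthy DN2 cells, and 4.98 and 5.01 in healthy GMP. The order of arrays was close to that of H2-Ab1: the LSK arrays stood clear of GMP leukemia and healthy cells, and DN2 leukemia 1 fell between LSK 1 and LSK 2. The mean was 18.0-fold higher in LSK than in GMP leukemia (log2 difference 4.17, SE 0.89, adjusted p = 0.00346) and 12.8-fold lower in DN2 than in LSK leukemia (-3.68, SE 0.89, adjusted p = 0.00358).

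H2-DMa, the alpha chain of the peptide-exchange molecule DM, was low in GMP leukemia alone by the probe set used. It was 6.39, 9.91 and 9.88 in LSK 1 to 3 and 8.59, 6.88, 7.86, 7.57 and 7.62 in DN2 leukemias 1 to 5. It was 3.90, 4.69, 4.80, 5.87 and 5.37 in GMP leukemias 1 to 5, 8.44 and 8.43 in healthy DN2 cells, and 9.24 and 9.06 in healthy GMP. Here the GMP leukemias were low and every other array was above them, healthy cells included, while LSK 1 fell below all DN2 leukemias. H2-DMa was 6.86-fold higher in DN2 than in GMP leukemia (log2 difference 2.78, SE 0.58, adjusted p = 0.00138), 13.9-fold higher in LSK than in GMP leukemia (3.80, SE 0.67, adjusted p = 0.000989) and 18.7-fold lower in GMP leukemia than in healthy GMP (-4.22, SE 0.77, adjusted p = 0.00142). Its second probe set, of a kind whose probes can match other transcripts, did not give the call between DN2 and GMP leukemia (0.27, SE 0.31, adjusted p = 0.55 in a fit over all probe sets), but called DN2 lower than LSK leukemia (-1.40, SE 0.35, adjusted p = 0.0054). With the mean of both probe sets the difference between DN2 and GMP leukemia was 1.52. DN2 and LSK leukemia differed by -1.02 (95% interval -2.45 to 0.41, adjusted p = 0.228), which became -2.19 without LSK 1 (adjusted p = 0.00117) and 1.31 without LSK 2 and 3.

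Ctss encodes cathepsin S. Its values were 11.13, 12.55 and 12.42 in LSK 1 to 3, 11.15, 9.50, 10.54, 9.79 and 9.34 in DN2 leukemias 1 to 5, and 9.94, 10.06, 10.43, 10.43 and 10.61 in GMP leukemias 1 to 5. Healthy DN2 cells had 6.54 and 6.49 and healthy GMP 8.43 and 7.58. All 13 leukemia arrays were above all 4 healthy arrays. Ctss was 11.7-fold higher in DN2 leukemia than in healthy DN2 cells (log2 difference 3.55, SE 0.46, adjusted p = 5.44e-05) and 4.89-fold higher in GMP leukemia than in healthy GMP (2.29, SE 0.46, adjusted p = 0.0032). The second call was lost without healthy GMP 2 (1.86, adjusted p = 0.0842). Among leukemias it was 3.34-fold higher in LSK than in GMP (1.74, SE 0.41, adjusted p = 0.00582) and 3.92-fold lower in DN2 than in LSK (-1.97, SE 0.41, adjusted p = 0.00116).

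Ciita, the coactivator gene, was near the median of all values in most arrays. It was 3.52, 4.76 and 5.05 in LSK 1 to 3 and 3.95, 3.26, 3.37, 3.37 and 3.45 in DN2 leukemias 1 to 5. It was 3.51, 3.06, 3.52, 3.63 and 3.47 in GMP leukemias 1 to 5, 3.39 and 3.30 in healthy DN2 cells, and 3.61 and 3.49 in healthy GMP. Only LSK 2, LSK 3 and DN2 leukemia 1 were above 3.83, and LSK 1 was within the range of the GMP leukemias. The log2 difference was 1.01 between LSK and GMP leukemia and -0.96 between DN2 and LSK leukemia. The GMP arrays were all below the median of all values, so no fold is given against them. Since the filter let Ciita in only where LSK was high, its test is quoted with no filter, over 17097 genes, where the adjusted p was 0.0183 and 0.0131 (limma, SE 0.27 each). With the filter, both calls were lost without LSK 2 (adjusted p = 0.0825 and 0.0565) or without LSK 3 (0.0926 and 0.0754).

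Cd86 encodes a costimulatory ligand of CD28 and CTLA4, the second signal that accompanies class II. It had 4.93, 7.17 and 6.79 in LSK 1 to 3 and 4.87, 3.61, 5.66, 3.74 and 3.64 in DN2 leukemias 1 to 5. GMP leukemias 1 to 5 had 3.71, 4.48, 5.29, 4.17 and 5.20, healthy DN2 cells 3.64 and 3.74, and healthy GMP 3.43 and 3.53. LSK 1 overlapped the GMP and DN2 leukemias, and Cd86 was the member in which DN2 leukemia 3, not DN2 leukemia 1, was highest. It was 3.31-fold higher in LSK than in GMP leukemia (log2 difference 1.73, SE 0.55, adjusted p = 0.032) and 3.98-fold lower in DN2 than in LSK leukemia (-1.99, SE 0.55, adjusted p = 0.00856). The first call was kept in 11 of 20 alternatives and lost without LSK 2 (1.29, adjusted p = 0.172), LSK 3 (1.48, 0.124), or GMP leukemia 1 (1.51, 0.0619), 2 (1.71, 0.0553) or 4 (1.63, 0.0625). The second was lost without LSK 2 (-1.56, adjusted p = 0.0581). Both folds are partly against background, as DN2 leukemias 2, 4 and 5 and GMP leukemia 1 lay below the median of all values.

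**Figure D2:**
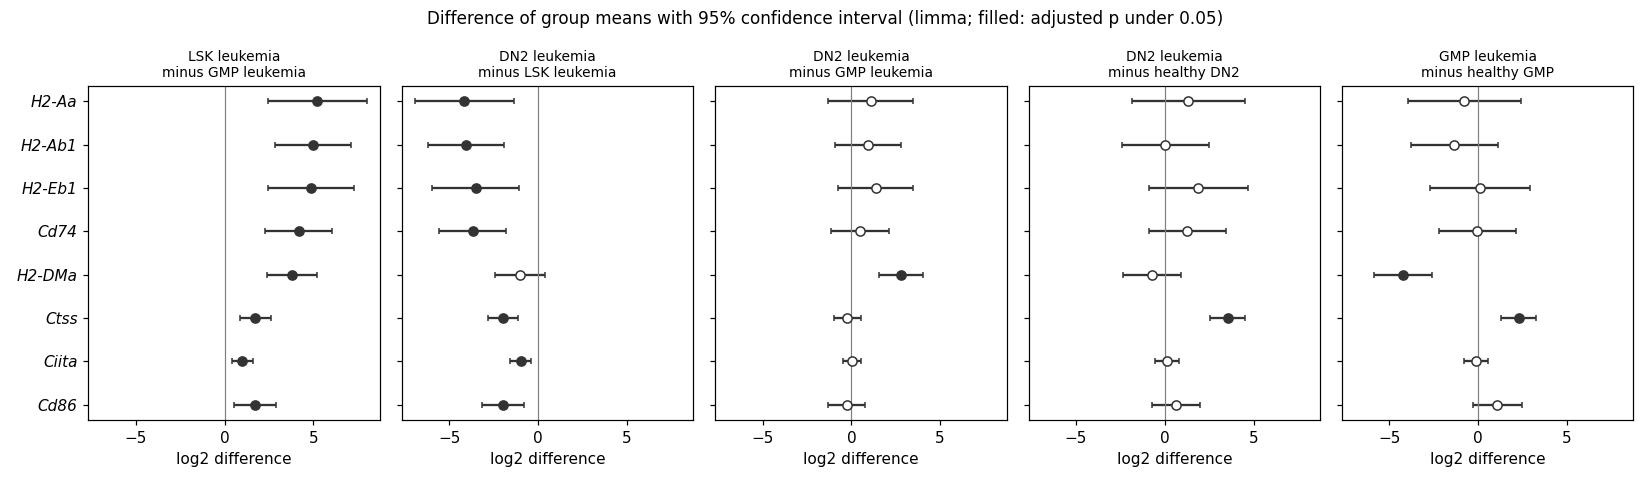
Difference of group means on the log2 scale (horizontal axis) for the 8 genes in 5 comparisons, with 95% confidence intervals from limma and filled points at an adjusted p under 0.05. All 8 intervals lie above 0 in LSK against GMP leukemia, while H2-DMa and Ctss are the members called against healthy cells.

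The 3 LSK leukemias were not alike. LSK 1 was the lowest of its group for 8 of 8 members, by a median of 2.03 below the mean of the other LSK arrays. The mean log2 value of H2-Aa, H2-Ab1, H2-Eb1, H2-DMa and Cd74 was 8.05 in LSK 1, 10.68 in LSK 2 and 10.72 in LSK 3. LSK 1 stood above every GMP leukemia for 6 of 8 members, all but Ciita and Cd86. The share of all genes for which it did so was not computed, so this count of 1 array is only a description. Mycn splits the same arrays, as given above, and the part of that split in these differences was not tested. LSK 1 alone differed from GMP leukemia by 3.89 for H2-Aa, 3.27 for H2-Ab1, 2.75 for H2-Eb1, 2.86 for Cd74, 1.46 for H2-DMa, 0.84 for Ctss and 0.36 for Cd86, with adjusted p from 0.15 to 0.825.

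DN2 leukemia 1 stood apart in the other direction. It was the highest DN2 leukemia for 7 of 8 members and lay within the LSK range for 7 of 8, the exception being Cd86, and its 5-gene mean was 9.75. DN2 leukemias 2 to 5 had 4.51, 6.96, 6.21 and 5.23, and the GMP leukemias 4.70, 4.53, 4.68, 6.64 and 5.46. Healthy DN2 cells had 5.87 and 5.67 and healthy GMP 6.65 and 6.27. Thus the DN2 leukemias spanned nearly the whole range of the series, and the SD of H2-Aa among them was 2.95, against 1.41 among the GMP leukemias. Without DN2 leukemia 1, the difference between DN2 and GMP leukemia was -0.017 for H2-Aa, 0.030 for H2-Ab1, 0.36 for H2-Eb1 and -0.32 for Cd74. H2-DMa kept its call there at 2.56 (adjusted p = 0.0046). Among the GMP leukemias, array 4 was the highest for 6 of 8 members.

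Members among themselves followed 1 order of arrays for the chain genes and Cd74 and looser ones for the rest. Pearson's r over the 17 arrays with the mean of the other 4 of the 5 genes was 0.95 for H2-Aa, 0.98 for H2-Ab1, 0.94 for H2-Eb1, 0.94 for Cd74 and 0.55 for H2-DMa. With the mean of all 5, it was 0.87 for Ciita, 0.71 for Cd86 and 0.58 for Ctss. These are descriptions across arrays that share group, RNA preparation and normalization. Of the 7 tested probe sets of the members that were not used above, which belong to 5 genes, 7 were called higher in LSK than in GMP leukemia and 7 lower in DN2 than in LSK leukemia. None of the 7 was called between DN2 and GMP leukemia, that of H2-DMa included. Among the 7, the Ciita probe set and the lowest of the H2-Aa probe sets passed the filter only through the LSK group. Their calls add no support, since they could only have been higher there. A further Ciita probe set, at most 3.36 in any array, was not tested. The probe sets used for H2-Aa and H2-Ab1 are of kinds whose probes can match more than 1 transcript, so related chains could add to their signal.

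In the healthy comparisons most members were not called. DN2 leukemia differed from healthy DN2 cells in 1 of 8 members, Ctss, where 23.2% of all genes were called (9.48% higher, 13.7% lower). With all 5 DN2 leukemias in the fit, H2-Aa differed by 1.31 (95% interval -1.87 to 4.50), H2-Eb1 by 1.88 (-0.91 to 4.67) and Cd74 by 1.28 (-0.90 to 3.46). Without DN2 leukemias 2, 4 and 5 the count was 3 of 8, with H2-Aa (4.01, limma adjusted p = 0.0441) and H2-Eb1 (4.10, 0.0389), where 15.6% of all genes were called. GMP leukemia differed from healthy GMP in 2 of 8, Ctss higher and H2-DMa lower, where 21.2% of all genes were called (8.08% higher, 13.1% lower). Arrays did not overlap for 1 of 8 members in the DN2 comparison and 3 of 8 in the GMP comparison, against 50.0% and 43.5% of all genes tested. Between healthy DN2 cells and healthy GMP, limma called 0 of 8 members, with 1 (Ctss, log2 difference -1.49, adjusted p = 0.107) at an unadjusted p under 0.05, where 11.2% of all genes were called (5.78% higher, 5.42% lower). Their arrays did not overlap for 7 of 8 members, against 76.5% of all genes tested. The leukemia-to-healthy change was tested between the DN2 and the GMP pair, where 12.7% of all genes were called (6.39% higher, 6.28% lower). It differed for H2-DMa by 3.49 (SE 1.08, adjusted p = 0.0475), which was kept in 10 of 27 alternatives, with adjusted p from 0.000444 to 0.153, and lost on leaving out any 1 of the 4 healthy arrays, any DN2 leukemia but 2, or any GMP leukemia but 4. The differences left by those omissions ran from 3.23 to 3.60. By the second probe set of H2-DMa that difference was 0.99 (adjusted p = 0.329).

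Other genes of the pathway were taken from a list of 22. In LSK against GMP leukemia 11 of 22 were called higher and 0 lower, beside 10.3% and 16.5% of all genes. In DN2 against LSK leukemia 14 were called lower and 2 higher, beside 19.1% and 28.3% of all genes. The medians of the list were 1.09 and -1.66. Cd83, which keeps class II on the surface of activated cells, was 6.71, 11.31 and 8.15 in LSK 1 to 3 and 3.26 to 3.80 in GMP leukemias (log2 difference 5.20, SE 0.93, adjusted p = 0.00111). Lgmn, an endosomal protease of antigen and invariant chain processing, was 6.98, 8.90 and 8.10 in LSK 1 to 3 and 3.51 to 4.83 in GMP leukemias (3.73, SE 0.63, adjusted p = 0.000789). Cd40, a receptor for T-cell help on presenting cells, was 4.52 in LSK 1 and 7.62 in LSK 2, with LSK 3 between them, and at most 4.03 in all other arrays (2.72, SE 0.47, adjusted p = 0.000883). These 3 genes shared with the members the lead of LSK 2 and 3 over LSK 1.

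The DM and DO genes did not move as 1 block. H2-DMb2, a beta chain of DM, was 4.91, 8.55 and 8.57 in LSK 1 to 3 and 6.45, 3.40, 4.01, 3.65 and 3.67 in DN2 leukemias 1 to 5 (log2 difference of DN2 from LSK leukemia -3.11, SE 0.77, adjusted p = 0.00427). It thus followed the chain genes in DN2 leukemias 2 to 5, where its partner H2-DMa stayed at 6.88 to 7.86. H2-DMb1 and H2-DMb2 are close copies, and their probe sets may share signal. H2-Oa and H2-Ob encode DO, which holds DM back, and both were high in the DN2 leukemias. H2-Oa was 8.42 to 9.03 there, 4.02 to 5.65 in GMP leukemias, and 9.37, 7.04 and 7.18 in LSK 1 to 3 (DN2 against GMP leukemia 3.99, SE 0.40, adjusted p = 1.63e-06). In H2-Oa, unlike the members, LSK 1 was the highest of its group. H2-Ob was 6.77 to 9.74 in DN2 leukemias and 3.22 to 3.66 in GMP leukemias (4.87, SE 0.49, adjusted p = 1.68e-06). In DN2 against GMP leukemia, 5 of the 22 genes were called higher and 10 lower, beside 21.0% and 18.8% of all genes, so the higher calls were near that share. Among the lower were Ctsh, a cathepsin (-5.52, SE 0.74, limma adjusted p = 3e-05), and Marchf1, a ligase that removes class II from the surface (-3.18, SE 0.51, adjusted p = 0.000166).

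**Figure D3:**
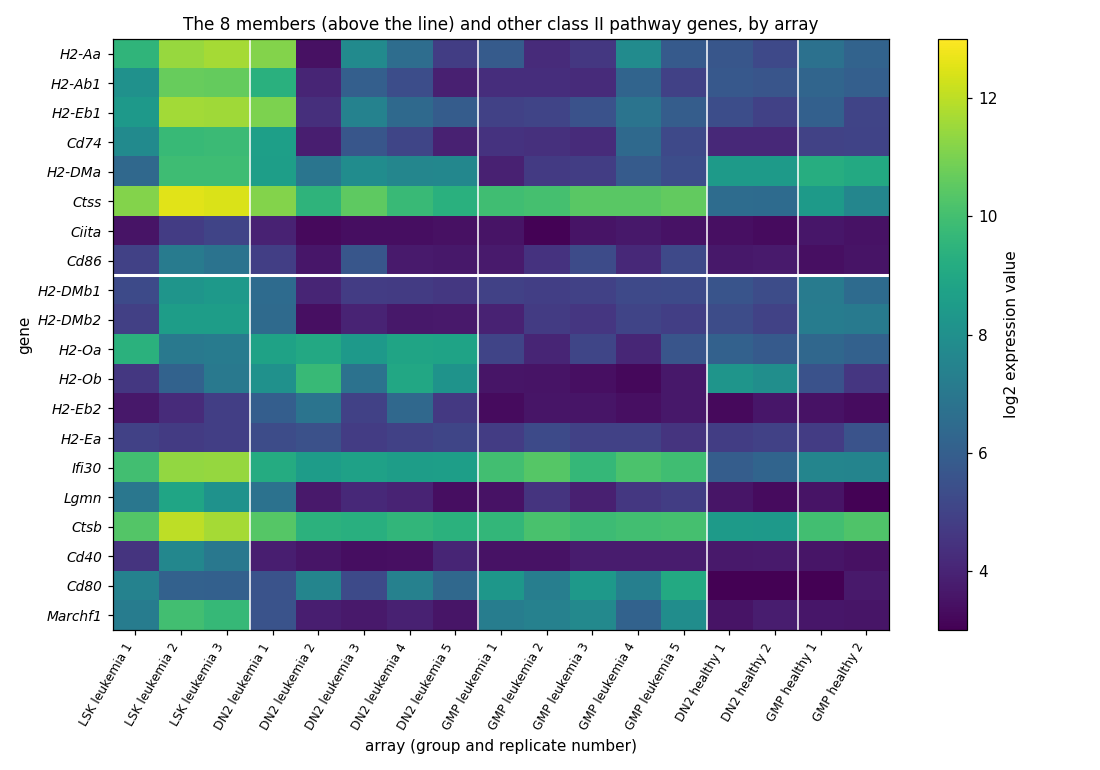
Log2 expression value (colour) of the 8 members above the line and 12 other class II pathway genes below it, in 17 arrays ordered by group. The chain genes and Cd74 are brightest in LSK 2, LSK 3 and DN2 leukemia 1, whereas H2-Oa and H2-Ob are bright in all 5 DN2 leukemias.

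Of 15 factors acting at class II promoters or on Ciita, 4 were called higher and 1 lower in LSK than in GMP leukemia. Of all genes tested, 26.7% were called there (10.3% higher, 16.5% lower), so the calls in either direction were near that share. Irf4, an interferon regulatory factor of lymphoid and dendritic cells, was 7.23, 5.66 and 6.80 in LSK 1 to 3 and 3.49 to 3.88 in GMP leukemias (log2 difference 2.88, SE 0.28, adjusted p = 1.07e-05). Irf1, an interferon-induced activator of Ciita, differed by 2.07 (SE 0.31, adjusted p = 0.000316). Irf8, a factor of monocytes and dendritic cells, was 7.02, 9.88 and 9.98 in LSK 1 to 3. It was 9.29, 4.89, 8.64, 5.99 and 5.02 in DN2 leukemias 1 to 5, and 3.46, 6.69, 3.95, 8.11 and 4.14 in GMP leukemias 1 to 5. Its 3 highest leukemia arrays, LSK 3, LSK 2 and DN2 leukemia 1, were also those with the highest Ciita, and GMP leukemia 4, highest of its group for Irf8, was so for 6 members. Other arrays went the other way. DN2 leukemia 3, with Irf8 at 8.64, had Ciita at 3.37. Healthy GMP, higher in Irf8 than GMP leukemia, had Ciita at 3.61 and 3.49. The part of Irf8 in the Ciita and class II levels was not tested. Irf8 was higher in LSK than in GMP leukemia by 3.69 (SE 1.20, adjusted p = 0.0344) and lower in GMP leukemia than in healthy GMP by -4.62 (SE 1.38, adjusted p = 0.028). Spi1, the myeloid factor PU.1, was 9.06 to 10.38 in LSK and GMP leukemias, 6.56 in DN2 leukemia 1 and 3.69 to 4.66 in DN2 leukemias 2 to 5 (DN2 against GMP leukemia -5.03, SE 0.43, adjusted p = 3.06e-07).

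Interferon gamma induces class II through Ciita. Its own gene, Ifng, was 11.04, 9.50, 9.88, 9.32 and 10.79 in DN2 leukemias 1 to 5, 5.10, 7.47 and 5.13 in LSK 1 to 3, and 2.59 to 2.79 in GMP leukemias (DN2 against GMP leukemia 7.41, SE 0.42, adjusted p = 3.08e-09; LSK against GMP leukemia 3.20, SE 0.49, adjusted p = 0.00035). Among leukemias it was high in all 5 DN2 leukemias, whose chain genes ranged widely, and lowest in the GMP leukemias, whose chain genes were low. DN2 leukemia 1 was the highest of its group for both Ifng and the 5-gene mean. DN2 leukemia 5, next for Ifng at 10.79, had a 5-gene mean of 5.23. DN2 leukemia 4, lowest for Ifng at 9.32, had a 5-gene mean of 6.21. The part of Ifng in the class II levels was not tested. Of 15 genes of interferon gamma signalling, 6 were called higher and 0 lower in LSK than in GMP leukemia, beside 10.3% and 16.5% of all genes. In DN2 against GMP leukemia 7 were higher and 3 lower, beside 21.0% and 18.8% of all genes. The lower ones included the receptor chain Ifngr2 (-4.10, SE 0.37, limma adjusted p = 4.77e-07). Class I presentation, the parallel pathway for CD8+ T cells, was called higher in 11 of 15 genes in both LSK and DN2 leukemia against GMP leukemia. Those comparisons share the GMP arrays. Nlrc5, the class I counterpart of Ciita, differed by 3.71 (SE 0.44, adjusted p = 5.21e-05) and 4.61 (SE 0.38, adjusted p = 1.71e-07). In DN2 against GMP leukemia the median difference was 0.82 for the 15 class I genes, with 11 called higher and 2 lower, and 0.71 for the 8 class II members, with 1 called higher, beside 0.029 over all genes tested, of which 21.0% were called higher. The lists were not tested against each other. Among receptors for Cd86 and Cd80, Cd28 was 9.87 to 11.52 in the DN2 leukemias and 3.86 to 4.15 in the LSK leukemias (DN2 against LSK leukemia 6.72, SE 0.30, adjusted p = 3.44e-10).

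Some markers of the cells that usually carry class II, and of other cells, differed between the same arrays, and their part in the result was not tested. In a sorted bulk sample, more cells of a type and more RNA per cell cannot be told apart. In LSK against GMP leukemia 10.3% of all genes were called higher and 16.5% lower. Of 10 dendritic cell markers, 5 were called higher and 0 lower there. The mean of that list was 4.71, 6.05 and 6.06 in LSK 1 to 3, 4.31 to 5.20 in DN2 leukemias (highest in array 1) and 3.88 to 4.46 in GMP leukemias. Itgax, which encodes CD11c, was 6.48, 9.12 and 8.48 in LSK 1 to 3 and 8.30, 3.66, 8.22, 4.79 and 3.71 in DN2 leukemias 1 to 5. Xcr1 and Zbtb46, also on that list, were at or near background in all arrays, at 2.80 to 3.32 and 3.38 to 4.09. Both were picked after their values were seen and do not stand for the list. Its 10 tested markers had a median difference of 1.64 in LSK against GMP leukemia. Of 13 B-cell markers, 9 were called higher and 0 lower in LSK than in GMP leukemia, with list means of 5.38, 5.22 and 5.46 in LSK 1 to 3, 3.61 to 4.50 in DN2 (highest in array 3) and 3.55 to 3.76 in GMP leukemias, so the B-cell list did not follow the order of the members within these groups. Of 15 B-cell markers measured, 11 had a group mean above the median of all values in LSK, 6 in DN2 and 4 in GMP leukemia. The filter thus tilted this count towards markers high in LSK. The median difference of the 13 tested B-cell markers was 0.88 in LSK against GMP leukemia. Ms4a1, which encodes CD20, was 4.75, 6.92 and 7.60 in LSK 1 to 3. The B-cell factors Pax5 and Ebf1 were at most 3.56 and 3.37 in any array, below the median of all values. Both were picked after their values were seen and do not stand for the list. Jchain was the B-cell list's largest difference (7.84, SE 0.91, adjusted p = 4.51e-05) and was higher in LSK 1, at 12.89, than in LSK 2 and 3, at 10.47 each.

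Monocyte and macrophage markers gave 5 called higher and 0 lower of 16 in LSK against GMP leukemia, beside 10.3% and 16.5% of all genes. They gave 0 higher and 11 lower in DN2 against LSK leukemia, beside 28.3% and 19.1% of all genes. The list mean was 7.21, 8.97 and 8.31 in LSK 1 to 3, 6.73, 3.93, 4.83, 4.53 and 4.24 in DN2 leukemias 1 to 5, and 6.50 to 7.06 in GMP leukemias. Csf1r, the receptor for the macrophage growth factor, was 9.03, 10.60 and 9.71 in LSK 1 to 3 and 5.64 to 6.74 in GMP leukemias (log2 difference 3.72, SE 0.44, adjusted p = 5.38e-05). Neutrophil markers gave 0 of 10 calls in LSK against GMP leukemia by limma, and 0 at an unadjusted p under 0.05. Their mean was 10.98, 12.74 and 13.11 in LSK 1 to 3. NK-cell markers gave 6 called higher and 0 lower of 9 in LSK against GMP leukemia, and 8 higher and 0 lower in DN2 against GMP leukemia (21.0% and 18.8% of all genes). Their mean was 5.78, 7.59 and 7.74 in LSK 1 to 3, 10.63, 7.63, 10.36, 8.37 and 7.96 in DN2 leukemias 1 to 5, and 3.51 to 4.20 in GMP leukemias. LSK 1 was thus the lowest of its group for the dendritic cell, monocyte, NK-cell and neutrophil lists as for the members. It was also lowest for the erythroid and interferon gamma signalling lists and, narrowly, for the T-cell and class I lists. It was not lowest for the B-cell or thymic epithelial lists. DN2 leukemia 1 was the highest of its group for the dendritic cell, monocyte and NK-cell lists. It was also highest for the erythroid and interferon gamma signalling lists, but not for the B-cell, neutrophil, T-cell or class I lists. Lists of cells that usually carry class II and lists of other genes thus shared these orders, each among 3 or 5 arrays. The part of any of these cells in the class II levels was not tested.

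**Figure D4:**
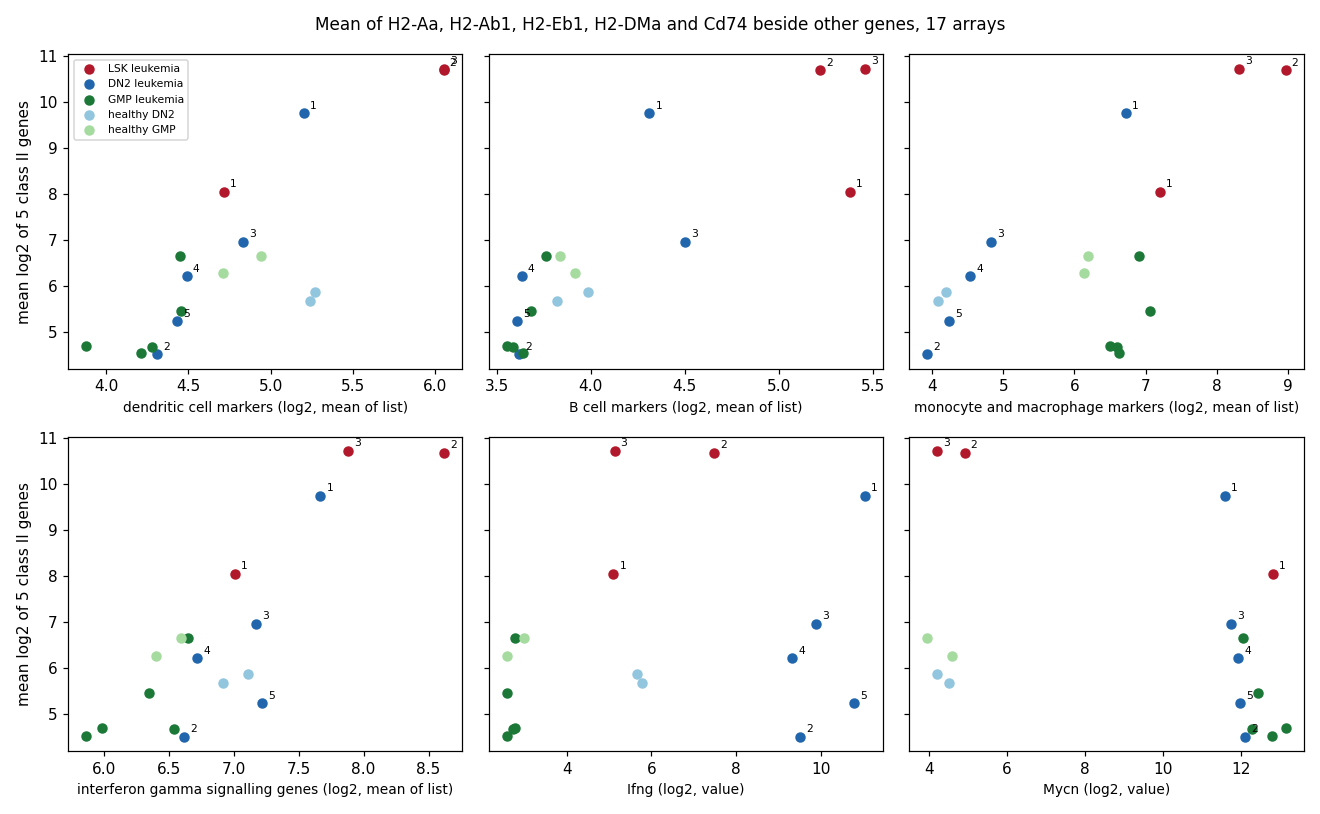
Mean log2 value of H2-Aa, H2-Ab1, H2-Eb1, H2-DMa and Cd74 (vertical axis) against the mean log2 value of 4 gene lists and the log2 values of Ifng and Mycn (horizontal axes), 1 point per array, with LSK and DN2 leukemias numbered. LSK 2, LSK 3 and DN2 leukemia 1 have the highest class II means, and the DN2 leukemias span 4.51 to 9.75 while their Ifng values stay between 9.32 and 11.04.

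Among the 11621 tested genes outside the members, the 6 whose profile over the 17 arrays was most like the 5-gene mean were Gm5547, Cx3cr1, Cd36, Klra8, Zeb2 and Mx1, with Pearson's r of 0.92, 0.91, 0.91, 0.91, 0.90 and 0.90. Over the 13 leukemia arrays r was 0.95, 0.92, 0.91, 0.92, 0.94 and 0.92. Spearman's rho over 17 arrays was 0.77, 0.76, 0.62, 0.72, 0.92 and 0.86 in the same order. Cx3cr1, a chemokine receptor of monocytes, was 6.79, 9.33 and 8.87 in LSK 1 to 3 and 8.25, 3.16, 7.87, 3.57 and 3.59 in DN2 leukemias 1 to 5. Its profile had in common with the chain genes the lead of DN2 leukemias 1 and 3 and of LSK 2 and 3.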

How the data were processed

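The 17 arrays were hybridized with biotin-labelled RNA made from 300 ng of total RNA, per the labels' protocols. The deposited table holds log2 values of each probe set, made by the authors with RMA (tools RMA and affy, per the submitters' processing notes). Tool versions are not given here, nor whether all arrays were normalized together. Of 45141 probe sets, 104 controls were left out. The platform annotation gave 28898 probe sets 1 symbol and 551 several, and did not list 15588. Array medians were 3.80 to 3.86. The number of arrays limits the precision.

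Groups came from the labels. Differences were fitted with limma 3.58.1 in R 4.3.3 (lmFit, eBayes, 1 mean per group, all arrays, two-sided, Benjamini-Hochberg over 11629 genes), and the procedure was tested on simulated data. The alternatives were filters, probe set choice, normalization, spread, samples in the fit, replicate block, Y-linked covariate, and arrays left out; leaving out DN2 leukemias 2, 4 and 5 was added after the values were seen. The members in every comparison, and per other list and comparison up to 4 genes of largest difference, called ones first, were to be named. H2-DMb1, H2-Eb2, Sppl2a, H2-Ea, Itgam, Itgax, Xcr1, Zbtb46, Pax5 and Ebf1 were named outside that rule after their values were seen. Other lists drawn up (erythroid and thymic epithelial markers) had 0 and 0 genes called higher in LSK than in GMP leukemia, of 4 and 5 (limma; 0 and 1 at an unadjusted p under 0.05). The members and lists were chosen with earlier results of these data known. The X box and interferon motifs were shortened after a first search with longer forms, whose matches are not reported.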

Additional observations from a re-analysis of the deposited data

Results flagged for a closer look

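Ciita in DN2 leukemia 1 was 3.95, far above the other 4 DN2 leukemias relative to their spread (3.26 to 3.45). Ciita in GMP leukemia 2 was 3.06, far below the other 4 GMP leukemias relative to theirs (3.47 to 3.63). These were the only such arrays among 16 groups of 5 arrays examined (8 members in 2 groups), where chance gives about 1 in 20. The change of H2-DMa from healthy to leukemic cells was 3.49 higher in the DN2 than in the GMP pair by a test of that difference (SE 1.08, limma adjusted p = 0.0475). Its second probe set gave 0.99 (adjusted p = 0.329).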

How the results depend on the processing

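Of 1145 member differences recomputed under 31 alternatives, 1039 kept direction and call, 61 lost a call, 13 gained one and 32 changed sign. With LSK 2 and 3 left out, the members called in LSK against GMP leukemia were 0 and in DN2 against LSK leukemia 0, and H2-DMa differed there by 1.31. With only the groups compared in the fit, 4 of 8 were lower in DN2 than in LSK leukemia, where 44.0% of all genes were called in either direction. In healthy DN2 against healthy GMP, 5 of 6 tested were then lower, where 49.4% of all genes were called. With a spread per group that count was 1 of 8, beside 45.6% of all genes. On leaving out 1 array the counts ran from 6 to 8 (LSK against GMP leukemia), 3 to 8 (lower in DN2 than in LSK leukemia, 3 without LSK 2 and 4 without LSK 3), 0 to 1 (Ctss in GMP leukemia against healthy GMP, 0 without healthy GMP 2) and 0 to 1 (the DN2 minus GMP change). That last count was 0 with no filter, with the mean of all probe sets, with DN2 leukemias 1 and 3 left out, and with the replicate block. With DN2 leukemias 2, 4 and 5 left out (added after the values were seen), 4 of 8 members were higher in DN2 than in GMP leukemia (25.5% of all genes called). Then 1 of 8 was lower in DN2 than in LSK leukemia (31.8%) and 3 of 8 higher in DN2 leukemia than in healthy DN2 cells (15.6%). The 1 of 8 called in the DN2 minus GMP change, where 10.3% of all genes were called, was Ctss (2.04), not H2-DMa. Of 25 pairs of same-numbered arrays of different groups, 6 had a correlation of their deviations over 0.1 (range -0.30 to 0.25, median 0.053). In 10 of 22 cases a leukemia array correlated best, among the arrays of another leukemia group, with the one of its own number. A random pick among the 3 or 5 arrays of that group would give fewer on average, so whether the numbers mark pairs was not settled. The labels name no pairs, and the main fit took none. The replicate block gave 7 of 8 higher in LSK than in GMP leukemia (22.0% of all genes called) and 6 of 8 lower in DN2 than in LSK leukemia (42.8%). It made H2-Eb1 -0.065 in GMP leukemia against healthy GMP.

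Sign changes were as follows. In DN2 against GMP leukemia without DN2 leukemias 1 and 3, H2-Aa was -0.72, H2-Ab1 -0.38, H2-Eb1 -0.11, Cd74 -0.66 and Ciita -0.079. On leaving out 1 array there, H2-Aa ran from -0.017 to 1.90, Cd74 from -0.32 to 0.89 and Ciita from -0.075 to 0.098. Against healthy DN2 cells without DN2 leukemias 1 and 3, H2-Aa was -0.48, H2-Ab1 -1.27 and Cd86 -0.026, and H2-Ab1 ran from -0.86 to 0.50 without 1 array. Without DN2 leukemias 2, 4 and 5, Ctss was 0.55 and Cd86 0.70 in DN2 against GMP leukemia, and Cd86 0.49 in the DN2 minus GMP change. In GMP leukemia against healthy GMP, H2-Eb1 was -0.013 with quantile normalization and -0.40 to 0.60 without 1 array, and Cd74 was 0.23 with the Y-linked covariate and -0.42 to 0.13 without 1 array. With the probe set of highest variance Ciita was 0.19 in that comparison, 0.098 between healthy cells and -0.040 in the DN2 minus GMP change. Between healthy cells H2-Eb1 was -0.92 to 0.082 without 1 array, and Cd86 -0.051 with the mean of all probe sets.

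Over all genes, LSK against GMP leukemia gave 3108 calls, 1699 with only those groups in the fit, 2041 with a spread per group and 1409 without LSK 2 and 3. DN2 leukemia against healthy DN2 cells gave 2695, or 5500 with a spread per group, and healthy DN2 against healthy GMP 1302, or 5312 with only those groups. The median of all genes was shifted by 0.11 in DN2 against LSK leukemia and by -0.12 in GMP leukemia against healthy GMP. Values near the median of 3.83 are background, so differences against such a level are compressed.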
